A study of Homo sapiens with 6 samples.

Results

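The 10 genes described here are AHNAK and AHNAK2, the annexins ANXA2, ANXA5 and ANXA6, the annexin partner S100A10, the coactivators YAP1 and WWTR1, and the matricellular genes CCN1 and CCN2. They are 10 of the 60676 genes in the deposited tables and were selected on 2 grounds, namely their names and the lower level of AHNAK in si-CyCoNP, which was known from these same libraries. The difference between the groups was thus part of the choice, and the values of the 10 genes are given as a description. The text says which of them lay past the thresholds used for all genes, but no p-value is printed for them and none of these calls is taken as support. RNA was sequenced from SK-N-BE, an established human neuroblastoma cell line that acquires neuronal traits in retinoic acid. All 6 libraries came from cells kept for 1.5 days in differentiation medium with 10 μM retinoic acid. In 3 libraries the cells had received a scrambled small interfering RNA (si-SCR), and in 3 a pool of small interfering RNAs against CyCoNP (si-CyCoNP), a long noncoding RNA made from the LINC02381 gene. A single cell line and a single siRNA pool were used, so effects of the pool on other transcripts cannot be told apart from those of the depletion.

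AHNAK and AHNAK2 encode giant scaffold proteins. AHNAK is held under the plasma membrane by a complex of annexin A2 with S100A10, and annexins as a family bind acidic membrane phospholipids in the presence of calcium and take part in membrane traffic and repair. YAP1 and WWTR1 (TAZ) are the coactivators at the end of the Hippo kinase pathway, which bind TEAD transcription factors, and CCN1 and CCN2 are their most widely used target genes. In neuroblastoma, high AHNAK, annexin and YAP1 levels are known from a mesenchymal-like cell state, which is set apart from an adrenergic state.

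Promoters are shown first for 4 genes that differ in their later values, AHNAK and S100A10, which were lower in si-CyCoNP, ANXA6, which was higher, and CCN2, which had no reads. Each is a RefSeq stretch of 300 bases (250 before and 50 after the start site, build GRCh38.p14, printed along the strand of the gene). Capitals mark GGAATG, the letters bound by TEAD factors, searched on both strands together with TGANTCA, the AP-1 motif; neither set of letters overlaps the other.
AHNAK, chr11:62545777-62546076, minus strand: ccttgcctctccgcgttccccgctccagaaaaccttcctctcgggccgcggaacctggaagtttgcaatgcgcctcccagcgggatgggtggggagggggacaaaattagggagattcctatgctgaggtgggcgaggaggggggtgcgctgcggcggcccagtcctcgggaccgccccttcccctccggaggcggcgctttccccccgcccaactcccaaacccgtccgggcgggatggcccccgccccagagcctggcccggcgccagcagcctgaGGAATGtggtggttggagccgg
S100A10, chr1:151993810-151994109, minus strand: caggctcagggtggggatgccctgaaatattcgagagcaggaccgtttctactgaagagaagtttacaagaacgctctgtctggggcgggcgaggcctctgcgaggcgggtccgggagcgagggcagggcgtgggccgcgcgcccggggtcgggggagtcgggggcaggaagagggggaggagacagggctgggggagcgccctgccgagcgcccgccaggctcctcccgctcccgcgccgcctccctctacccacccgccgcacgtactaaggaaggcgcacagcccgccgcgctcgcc
ANXA6, chr5:151157730-151158029, minus strand: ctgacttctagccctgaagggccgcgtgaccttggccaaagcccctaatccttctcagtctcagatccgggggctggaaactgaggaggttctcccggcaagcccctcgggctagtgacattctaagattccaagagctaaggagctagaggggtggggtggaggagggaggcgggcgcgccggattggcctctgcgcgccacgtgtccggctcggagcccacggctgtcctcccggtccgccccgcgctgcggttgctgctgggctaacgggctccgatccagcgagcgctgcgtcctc
CCN2, chr6:131951323-131951622, minus strand: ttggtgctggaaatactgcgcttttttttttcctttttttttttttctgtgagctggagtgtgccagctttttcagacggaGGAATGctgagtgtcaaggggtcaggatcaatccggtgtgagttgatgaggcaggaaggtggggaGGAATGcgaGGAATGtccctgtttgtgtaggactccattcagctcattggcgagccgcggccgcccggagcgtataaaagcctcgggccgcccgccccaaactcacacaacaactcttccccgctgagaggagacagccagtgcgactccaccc
The table held promoters for 9 of the 10 genes, with 2 windows each for AHNAK2, ANXA6 and WWTR1, and all windows were searched. For ANXA6 the first window is shown. GGAATG was found once in AHNAK, with its first base at 29 after the start, once in YAP1, at -162, and 3 times in CCN2, at -169, -104 and -95. In the other 6 genes with a promoter it was not among these letters, as in the S100A10 and ANXA6 windows above. TGANTCA was found only in ANXA2, at -127. Of all 35116 promoters of this length, 14% held GGAATG at least once and 7.71% held TGANTCA. A single match in a given promoter is thus common, and no match is by itself evidence of binding. How many promoters hold 3 matches, as CCN2 does, was not counted.

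The study also examined the microRNA miR-4492 together with CyCoNP. Its mature RefSeq sequence, encoded at chr11:118910765-118910781 on the plus strand, is shown with its seed (bases 2 to 8) in capitals.
hsa-miR-4492: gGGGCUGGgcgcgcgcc
The 7 letters that pair with this seed, CCAGCCC, occurred in the longest annotated 3′ untranslated region of 2 of the 10 genes, and are capitalised in the sites below.
AHNAK, match at chr11:62516531-62516537, minus strand: agttccaagttcgtCCAGCCCatgtgcaa
ANXA6, match at chr5:151100875-151100881, minus strand: tttctgaccttaggCCAGCCCctttccct
The AHNAK match began at base 207 of a region of 842 bases and the ANXA6 match at base 567 of a region of 742 bases. AHNAK was lower and ANXA6 higher in si-CyCoNP, so the 2 genes with these letters lay on opposite sides. Among all tested genes with such a region, 2966 of 10492 (28.3%) held at least 1 match.

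The libraries held 3762009 to 4799407 counted fragments. Levels are FPKM, the fragments of a gene scaled by its length and by the total of the library. The length in the deposited values is not that of 1 transcript, and can take in all annotated exons of a gene. ANXA5 has 2925 annotated exonic bases and a longest transcript of 1638 bases, and AHNAK has 19466 and 18761. Comparisons between genes depend on this length, while those of 1 gene between groups do not. Differences are log2 fold changes of si-CyCoNP over si-SCR from edgeR on the raw counts, with the standard error (SE) of the fit, so a negative value is a lower level in si-CyCoNP. Genes with a mean of at least 1 FPKM in either group were tested (13966 genes), and a gene was called at a Benjamini-Hochberg adjusted p under 0.05 over all of them together with a log2 fold change beyond 1 in size. LINC02381 had 14.9, 12.9 and 15.4 FPKM in si-SCR against 0.973, 1.65 and 0.676 in si-CyCoNP (log2 fold change -3.78, SE 0.190, edgeR quasi-likelihood test, adjusted p = 6.95e-14), in the direction of the labels. The median log2 fold change of all tested genes was 0.005.

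Of the 10 genes, 5 were tested (AHNAK, ANXA2, ANXA5, ANXA6 and S100A10) and 5 lay below 1 FPKM in both groups (AHNAK2, YAP1, WWTR1, CCN1 and CCN2). Of those tested, 2 were called lower (AHNAK and S100A10), beside 2.98% of all tested genes, and 1 was called higher (ANXA6), beside 2.28%. Since the genes were chosen with this contrast known, nothing is read from these counts. The libraries of the groups did not overlap for the 5 tested genes, 4 lower and 1 higher, and this was so for 16.1% of all tested genes in the lower and 24.2% in the higher direction.

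**Figure D1:**
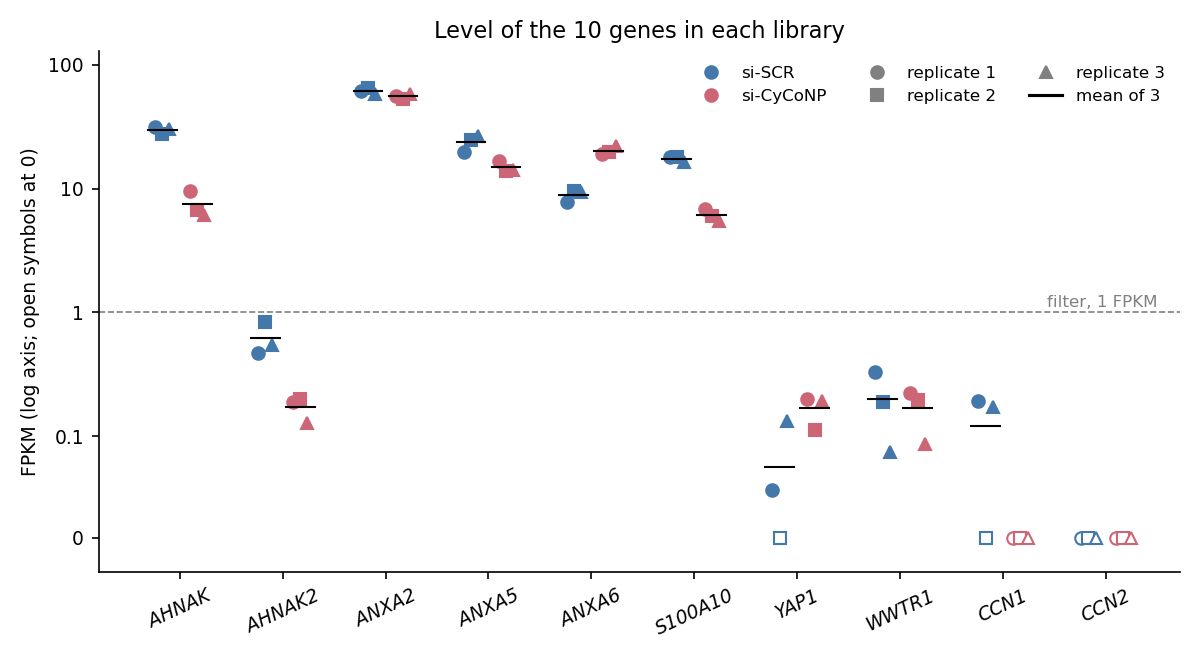
Level of the 10 genes in FPKM (log axis, with open symbols for libraries at 0) in each of 3 si-SCR and 3 si-CyCoNP libraries, with the mean of each group as a black line and the filter of 1 FPKM as a dashed line. AHNAK, S100A10, ANXA5 and ANXA2 lie lower in si-CyCoNP and ANXA6 higher, with no overlap, while YAP1, WWTR1, CCN1 and CCN2 lie near or at 0 in both groups.

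AHNAK, whose gene spans chr11:62433542-62556235 on the minus strand (GRCh38), makes a transcript of 18761 bases in 5 exons, of which a single exon holds 18173 bases. It had 31.5, 27.7 and 30.2 FPKM in si-SCR and 9.55, 6.76 and 6.13 FPKM in si-CyCoNP. Every si-SCR library lay far above every si-CyCoNP library, and si-CyCoNP replicate 1 was the highest of its group. The mean level went from 29.8 ± 1.91 to 7.48 ± 1.82 FPKM (SD, n = 3), and the log2 fold change was -2.06 (SE 0.112), a 4.17-fold lower level with 24.0% remaining. Because of the length of the transcript these levels rest on many fragments, 2634, 2031 and 2810 in si-SCR against 892, 559 and 495 in si-CyCoNP. By the size of the fitted decrease AHNAK held rank 236 of the 13966 tested genes, so many genes had a larger fitted decrease. This rank takes in all tested genes, called or not, and leaves their SE aside. In bulk RNA, fewer cells with AHNAK and less AHNAK RNA per cell cannot be told apart, and the same holds for every gene below.

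AHNAK2, the paralog on chromosome 14 (chr14:104937244-104978374, minus strand), has a similar build, with 17898 of its 18335 transcript bases in a single exon. Its libraries held 38, 59 and 49 counts in si-SCR against 17, 16 and 10 in si-CyCoNP, which is 0.471, 0.835 and 0.545 FPKM against 0.189, 0.2 and 0.128 FPKM. All 3 si-CyCoNP libraries were below all 3 si-SCR libraries. Summed over the libraries this was 146 counts (95% exact Poisson interval 123 to 172) against 43 (31.1 to 57.9), and the intervals cover counting error only. AHNAK2 was below the filter, and without a filter its log2 fold change was -1.87 (SE 0.287). With no filter, or with the filterByExpr filter of edgeR, it was past the thresholds for a call, which adds nothing here since it was chosen with this contrast known. The ratio of AHNAK2 to AHNAK in FPKM was 0.0149, 0.0301 and 0.0181 in si-SCR against 0.0197, 0.0297 and 0.0209 in si-CyCoNP. These ranges overlapped, with means of 0.021 ± 0.008 and 0.0234 ± 0.00541 (SD, n = 3), and AHNAK was the main of the 2 scaffolds in every library. Within each transcript, windows of 100 bases that recur in the same transcript made up 1.08% for AHNAK and 1.24% for AHNAK2, and no such window was shared with another gene.

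S100A10 (p11) is the light chain that dimerises, binds annexin A2 and is stabilised by it. The gene lies at chr1:151982915-151993859 on the minus strand and its transcript has only 671 bases. Its level was 17.9, 18.1 and 16.3 FPKM in si-SCR and 6.79, 6.05 and 5.48 FPKM in si-CyCoNP. The libraries within a group were close to each other and the groups were far apart. Means were 17.5 ± 0.993 and 6.11 ± 0.658 FPKM (SD, n = 3), and the log2 fold change was -1.57 (SE 0.214), a 2.97-fold lower level. The short transcript gave few fragments (78, 69 and 79 against 33, 26 and 23), and the SE was larger than that of AHNAK.

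ANXA2, the annexin that S100A10 binds, was the most abundant of the 10 genes in all 6 libraries. It lies at chr15:60347134-60402883 on the minus strand. Its level was 62.0, 65.4 and 58.4 FPKM in si-SCR and 56.5, 53.2 and 57.6 FPKM in si-CyCoNP. The groups did not overlap, but the lowest si-SCR library and the highest si-CyCoNP library were nearly level. Means were 61.9 ± 3.52 and 55.7 ± 2.30 FPKM, and the log2 fold change was -0.22 (SE 0.0789). This small difference depended on the setting, and was not past the threshold in 8 of 15 alternatives, which were library totals alone, both FPKM scales, and the omission of any library but si-SCR replicate 3. In the longest annotated ANXA2 transcript (3528 bases), 7.52% of 100-base windows were identical to the pseudogene ANXA2P2. The share may differ for shorter ANXA2 transcripts, which were not searched. ANXA2P2 had 3 to 9 counts in a library, beside 1993 to 2464 for ANXA2. Fragments that match both genes are not in either count.

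The S100A10 to ANXA2 ratio in FPKM was 0.290, 0.277 and 0.280 in si-SCR against 0.120, 0.114 and 0.0952 in si-CyCoNP. The balance between the partners thus differed between the groups in every library, with means of 0.282 ± 0.00669 and 0.110 ± 0.0130 (SD, n = 3). The AHNAK to ANXA2 ratio was 0.509, 0.424 and 0.517 against 0.169, 0.127 and 0.107, also without overlap. These ratios are made from the values above and add no separate evidence.

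**Figure D2:**
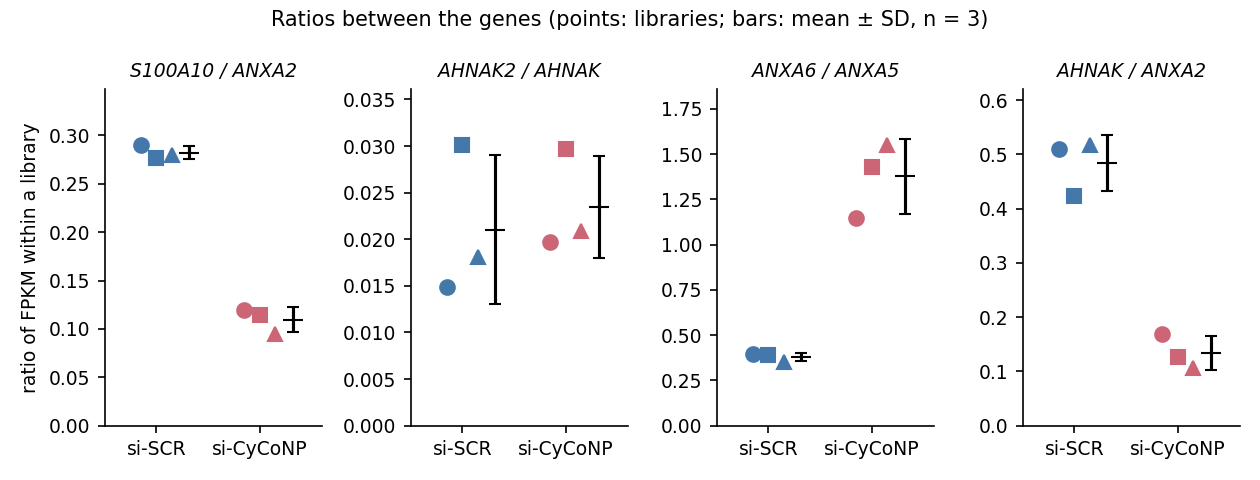
Ratios of FPKM within a library for 4 pairs of the genes, with 1 point for each of the 3 libraries in si-SCR and si-CyCoNP and bars for the mean ± SD (n = 3). The ratio of S100A10 to ANXA2 and that of AHNAK to ANXA2 are lower in si-CyCoNP, that of ANXA6 to ANXA5 is higher, and the ranges of AHNAK2 to AHNAK overlap.

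ANXA5, which binds phosphatidylserine and is the protein behind the common stain for dying cells, lies at chr4:121667946-121696995 on the minus strand. It had 19.9, 24.6 and 26.4 FPKM in si-SCR and 16.6, 13.9 and 14.2 FPKM in si-CyCoNP. Every si-CyCoNP library was lower, and si-SCR replicate 1 lay nearest to them. Means were 23.6 ± 3.35 and 14.9 ± 1.48 FPKM, with a log2 fold change of -0.73 (SE 0.119) that did not reach the size set for a call.

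ANXA6, an annexin with a duplicated core that acts in endosomal traffic and membrane repair, went the other way. The gene lies at chr5:151100706-151157815 on the minus strand and has 26 exons. Its level was 7.86, 9.61 and 9.31 FPKM in si-SCR and 19.1, 19.9 and 21.9 FPKM in si-CyCoNP. All si-CyCoNP libraries stood well above all si-SCR libraries, with little spread in either group. Means were 8.93 ± 0.934 and 20.3 ± 1.46 FPKM, and the log2 fold change was 1.12 (SE 0.105), a 2.17-fold higher level. The ratio of ANXA6 to ANXA5 was 0.395, 0.39 and 0.353 in si-SCR against 1.15, 1.43 and 1.55 in si-CyCoNP, so that the order of these annexins was reversed between the groups in every library.

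**Figure D3:**
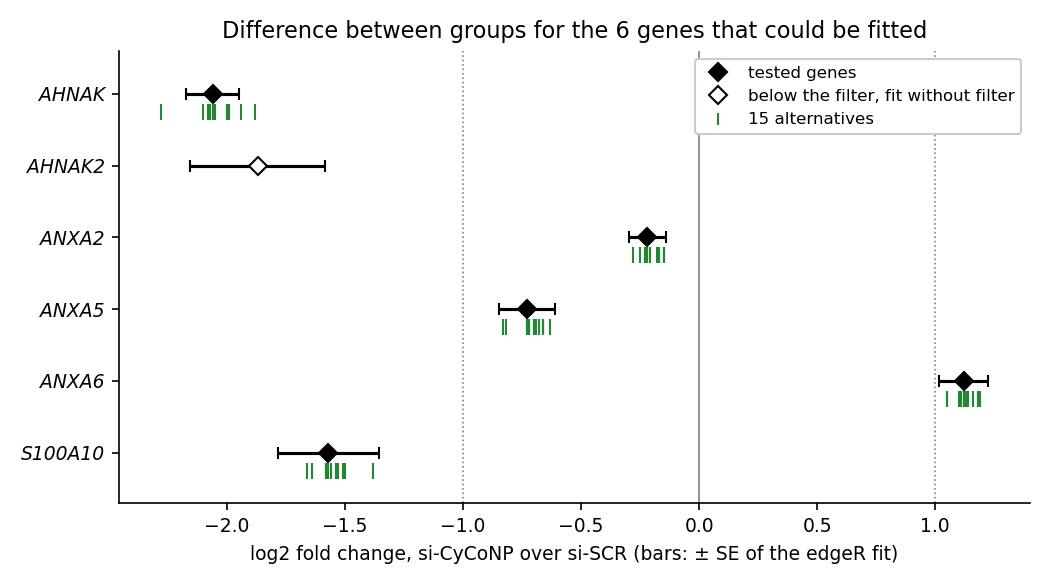
Log2 fold change of si-CyCoNP over si-SCR for the 5 tested genes and for AHNAK2, which was fitted without a filter (diamonds, with bars for ± SE), and values of the tested genes under 15 alternatives (green ticks). AHNAK and S100A10 lie below -1, ANXA5 and ANXA2 between -1 and 0, and ANXA6 above 1, also in all 15 alternatives, and AHNAK2 lies at -1.87.

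In FPKM, the order in si-SCR was ANXA2, AHNAK, ANXA5, S100A10, ANXA6 and AHNAK2. No library of a gene overlapped with that of its neighbour in this order. In si-CyCoNP the order was ANXA2, ANXA6, ANXA5, AHNAK, S100A10 and AHNAK2. There AHNAK (6.13 to 9.55 FPKM) and S100A10 (5.48 to 6.79 FPKM) overlapped, and AHNAK2 overlapped with WWTR1 and YAP1. ANXA6 moved from the fifth to the second place, and AHNAK from the second to the fourth. These places depend on the gene length in FPKM. With the length of the longest transcript, ANXA5 would lie above AHNAK in every si-SCR library. S100A10 would then lie above AHNAK in every si-CyCoNP library.

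The other annexins were described as a list of 10 genes. Of these, 6 had no count in any library (ANXA1, ANXA3, ANXA8, ANXA8L1, ANXA10 and ANXA13, named after their values were seen), and 2 were tested. ANXA11, which tethers RNA granules to lysosomes, fell from 4.50 ± 0.156 to 1.62 ± 0.333 FPKM (SD, n = 3, log2 fold change -1.54, SE 0.158, edgeR adjusted p = 2.07e-08). ANXA7, an annexin of secretory vesicle fusion, rose from 13.9 ± 0.235 to 26.7 ± 0.918 FPKM (log2 fold change 0.88, SE 0.107, adjusted p = 3.55e-07). Over all tested genes, 14.2% passed the adjusted p of 0.05 in the lower and 14.2% in the higher direction, whatever the size of the change. The sum of all annexins was 108, 118 and 113 FPKM in si-SCR and 121, 116 and 121 FPKM in si-CyCoNP, with overlapping ranges. Within that sum the makeup differed. ANXA2 took 57.5, 55.2 and 51.7% in si-SCR against 46.6, 45.8 and 47.6% in si-CyCoNP, and ANXA5 took 18.5, 20.8 and 23.4% against 13.7, 12 and 11.7%. ANXA6 took 7.29, 8.11 and 8.25% against 15.8, 17.2 and 18.1%. The share of the 2 lower annexins among the 10 genes was thus smaller in every si-CyCoNP library, and that of ANXA6 was larger. Since these are shares of a sum, a larger share of a gene lowers those of the others. Their sizes, and that of the sum, depend on the gene length in FPKM.

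**Figure D4:**
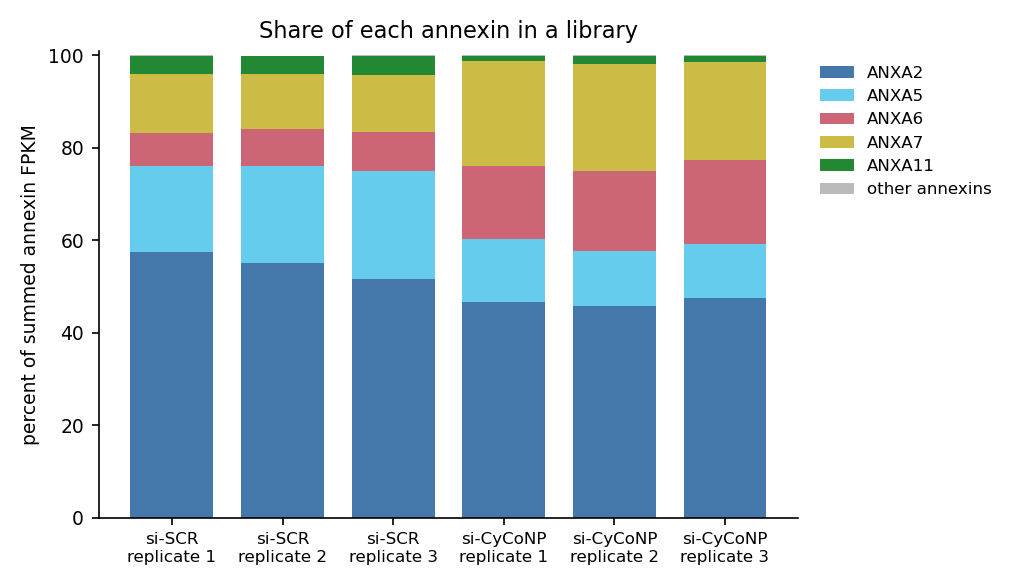
Share of each annexin in the summed annexin FPKM of a library, in percent, for the 3 si-SCR and 3 si-CyCoNP libraries, with bars stacked to 100. ANXA2 and ANXA5 take smaller shares and ANXA6 and ANXA7 larger shares in every si-CyCoNP library, and ANXA11 goes from at least 3.88% to at most 1.69%.

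The S100 proteins are small calcium-binding dimers. Of 19 other S100 genes, 4 were tested, 2 passed the test with lower values and none with higher values, and their median log2 fold change was -0.52, beside 0.005 over all tested genes. S100A6 fell from 105 ± 9.62 to 68.2 ± 6.12 FPKM (log2 fold change -0.69, SE 0.103, adjusted p = 8.07e-06). S100A11, which pairs with annexin A1, fell from 211 ± 27.8 to 160 ± 2.11 FPKM (log2 fold change -0.46, SE 0.0970, adjusted p = 6.06e-04). Both lay above every one of the 10 genes in FPKM, a comparison that depends on the gene length used. Both had smaller log2 differences than S100A10. The other 15 S100 genes were below 1 FPKM, and 9 of them had no count.

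Known partners of AHNAK or of the annexin A2 complex, with ferlin, caveolar and calpain genes of membrane repair, made a list of 38 genes, of which 16 were tested. Of these, 6 passed with lower and 4 with higher values, none reached the size for a call, and the median log2 fold change was -0.21. EHD2, an ATPase of caveolar necks, fell from 8.67 ± 1.43 to 5.69 ± 0.735 FPKM (log2 fold change -0.68, edgeR adjusted p = 1.08e-03), and EZR, which links membranes to actin, fell with a log2 fold change of -0.38 (adjusted p = 1.03e-03). CAPN2, a calpain subunit, had a log2 fold change of -0.43 (adjusted p = 9.54e-04), and it did not pass on the 2 FPKM scales (adjusted p = 0.0543 and 0.0530). HLTF, a chromatin factor that S100A10 and annexin A2 can bind, rose from 11.9 ± 1.49 to 19.2 ± 1.05 FPKM (log2 fold change 0.62, adjusted p = 2.12e-05). SMARCA4, a chromatin remodeller, and PLCG1, a phospholipase that AHNAK can activate, rose with log2 fold changes of 0.39 (adjusted p = 2.37e-04) and 0.46 (adjusted p = 8.87e-04). Of the 22 partners below the filter, 10 had no count in any library.

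YAP1 and WWTR1 were close to the limit of detection. YAP1 (chr11:102110447-102233424, plus strand) had 1, 0 and 4 counts in si-SCR against 6, 3 and 5 in si-CyCoNP. WWTR1 (chr3:149517235-149736714, minus strand) had 12, 6 and 3 counts in si-SCR against 9, 7 and 3 in si-CyCoNP. For both genes the libraries of the groups overlapped. The sums were 5 (95% exact Poisson interval 1.62 to 11.7) against 14 (7.65 to 23.5) counts for YAP1 and 21 (13 to 32.1) against 19 (11.4 to 29.7) for WWTR1. The intervals of the groups overlapped for both genes, and no fold is given at sums this low. A count of up to 3 in a library was treated as the floor, and WWTR1 lay above it in most libraries. Mean levels were 0.0565 and 0.167 FPKM for YAP1 and 0.199 and 0.168 FPKM for WWTR1 in si-SCR and si-CyCoNP.

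CCN1 (CYR61), a secreted protein that binds integrins, lies at chr1:85580761-85584589 on the plus strand. It had 2, 0 and 2 counts in si-SCR and none in si-CyCoNP, and a count of 0 in a group allows up to 3.69 (exact Poisson). CCN2 (CTGF), its close relative at chr6:131948176-131951372 on the minus strand, had no count in any of the 6 libraries, with the same upper limit in each group. At this depth no difference was detectable for either gene. The name of YAP target genes therefore goes against these libraries, in which the coactivators had at most 21 counts in a group and the defining targets at most 4, and the 6 scaffold, annexin and S100 genes carried nearly all of the signal. The 4 other CCN genes were also below 1 FPKM, and CCN3, the highest of them, had 0.185 FPKM in si-CyCoNP replicate 3 and no count in the other libraries.

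Of 20 further YAP and TAZ targets, 13 were below the filter. Of the 7 tested, 2 passed with lower and 1 with higher values, and the median log2 fold change was -0.13. NT5E, an enzyme of the cell surface that makes adenosine, fell from 9.44 ± 3.13 to 2.84 ± 0.273 FPKM (log2 fold change -1.79, SE 0.201, edgeR adjusted p = 9.45e-08), and is also in the list of the mesenchymal-like state below. RBMS3 (log2 fold change -0.42, adjusted p = 5.26e-03) and ARHGEF17 (0.41, adjusted p = 7.62e-03) passed in the count test only, with adjusted p of 0.137 and 0.143 for RBMS3 and 0.0510 and 0.0521 for ARHGEF17 on the 2 FPKM scales.

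Of 32 genes of the Hippo pathway itself, 21 were tested and 11 were below 1 FPKM in both groups, 2 of them with no count (VGLL2 and VGLL3, named after their values were seen). Of the tested genes, 8 passed with lower and 4 with higher values, and the median log2 fold change was -0.25. TEAD1, the DNA-binding partner of YAP1 and WWTR1, had 34.5, 30.0 and 23.8 FPKM in si-SCR and 17.8, 18.6 and 16.2 FPKM in si-CyCoNP. It fell with a log2 fold change of -0.82 (SE 0.106, adjusted p = 9.40e-07), and it lay far above both coactivators in every library. AMOTL1, an angiomotin that keeps YAP1 at cell junctions, had 27.0, 36.5 and 35.0 FPKM in si-SCR and 73.2, 91.1 and 82.5 FPKM in si-CyCoNP. It rose with a log2 fold change of 1.26 (SE 0.0956, adjusted p = 1.18e-10), with no overlap of the groups. Their relatives went the other way, and are named after their values were seen. The angiomotin AMOT fell (log2 fold change -1.08, edgeR adjusted p = 7.39e-04), and TEAD3 rose (0.66, edgeR adjusted p = 0.0302). WWC2, a scaffold of the kinases, fell from 6.22 ± 0.401 to 3.04 ± 0.414 FPKM (log2 fold change -1.11, adjusted p = 7.05e-08). NF2 (merlin), which activates the pathway, and VGLL4, which competes with YAP1 for TEAD factors, rose with log2 fold changes of 0.46 (adjusted p = 1.29e-04) and 0.48 (adjusted p = 9.33e-04). The kinase gene STK3 had 1.25 ± 0.114 and 0.577 ± 0.0697 FPKM and a log2 fold change of -1.18 (adjusted p = 1.14e-04), a call that was lost on both FPKM scales (adjusted p = 0.121 and 0.0788). Its mean was below 1 FPKM in si-CyCoNP, so STK3 was tested only through its higher level in si-SCR.

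Other markers of the mesenchymal-like state were set beside the 10 genes. Of 26 genes, 15 were tested, 6 passed with lower and 6 with higher values, and the median log2 fold change was -0.06. A shorter set of markers written for this state holds all 6 lower genes. It leaves out most of the higher ones, SMAD3 and SOX9 among them. LGALS1, a secreted lectin, fell from 457 ± 53.7 to 199 ± 20.1 FPKM (log2 fold change -1.27, SE 0.0908, edgeR adjusted p = 4.21e-11), and FOSL2, an AP-1 factor, fell from 14.2 ± 2.68 to 6.83 ± 1.05 FPKM (log2 fold change -1.12, adjusted p = 1.89e-07). FN1, the matrix protein fibronectin, rose from 0.697 ± 0.108 to 5.41 ± 0.949 FPKM (log2 fold change 2.88, edgeR adjusted p = 1.30e-13). Its mean was below 1 FPKM in si-SCR, so FN1 was tested only through its higher level in si-CyCoNP. SMAD3, which carries TGF-beta signals, and SOX9, a factor of neural crest and glia, rose with log2 fold changes of 1.13 (adjusted p = 4.74e-09) and 0.78 (adjusted p = 1.74e-04). The genes of this list thus moved in both directions, as the 10 genes did, but the balance depends on which markers are taken. With the filterByExpr filter, 7 genes of the list passed with lower and 5 with higher values. The summed level of the list was 617, 710 and 632 FPKM in si-SCR and 369, 402 and 363 FPKM in si-CyCoNP, most of it from LGALS1. Without LGALS1, a sum formed after the data had been seen, it was 212, 199 and 175 FPKM against 177, 180 and 179 FPKM, and the groups overlapped. PRRX1, a defining factor of the state, and MEOX1 and MEOX2 had no count in any library (named after their values were seen).

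Markers of the adrenergic state stood far higher. Of 12 genes, 11 were tested, 8 passed with lower and 1 with higher values, and the median log2 fold change was -0.41. PHOX2A, a factor of noradrenergic neurons, fell from 734 ± 98.3 to 352 ± 28.5 FPKM (log2 fold change -1.13, adjusted p = 4.51e-10), and GATA2, a zinc finger factor, fell from 342 ± 22.6 to 172 ± 9.95 FPKM (log2 fold change -1.06, adjusted p = 9.26e-11). TFAP2B, a factor of the neural crest, rose from 31.0 ± 0.0387 to 43.1 ± 3.52 FPKM (log2 fold change 0.41, adjusted p = 4.08e-04). The summed level of the list was 2110, 2010 and 1960 FPKM in si-SCR and 1310, 1260 and 1260 FPKM in si-CyCoNP. The adrenergic sum was lower in every si-CyCoNP library, beside the lower AHNAK and S100A10, while the mesenchymal-like sum was lower mostly through LGALS1. PHOX2A and GATA2 hold large parts of the adrenergic sum, and no such sum was formed without them. The 2 lists were thus not treated alike. The part of either state in the values of the 10 genes was not tested.

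**Figure D5:**
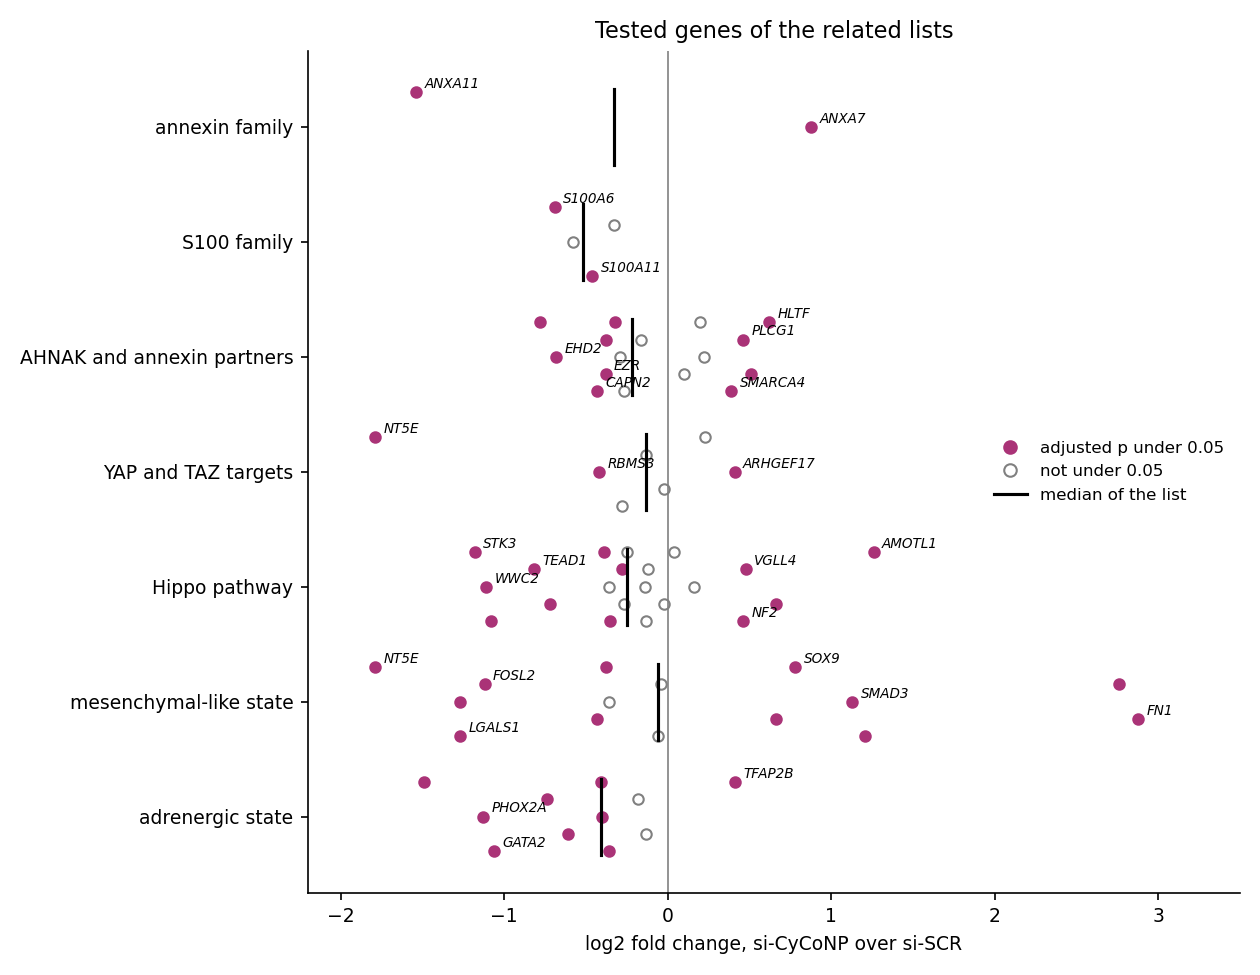
Log2 fold change of si-CyCoNP over si-SCR for each tested gene of 7 lists of related genes, filled where the edgeR adjusted p was under 0.05, with the median of each list as a black line. Every list but that of the S100 genes holds genes that passed in both directions, and the list medians run from -0.52 to -0.06.

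Profiles over the 6 libraries were compared with that of AHNAK by the root mean square distance of centred log2 CPM. Each count was taken relative to its library's total after TMM scaling, with a prior count of 2 that shrinks differences at low counts. The 5 nearest tested genes were BVES, GPM6B, BMF, RELL1 and DGKK. Their distances were 0.159, 0.174, 0.190, 0.194 and 0.219, and their log2 fold changes were -1.89, -2.10, -2.52, -2.10 and -2.29. BVES encodes a membrane protein of cell contacts, GPM6B a proteolipid of neural membranes and BMF a factor of programmed cell death. BMF had few counts, 46, 26 and 47 in si-SCR against 11, 5 and 6 in si-CyCoNP. It was below 1 FPKM in si-CyCoNP, and how far the prior count sets its distance was not tested. GPM6B had 30.6, 35.7 and 27.4 FPKM in si-SCR and 9.32, 6.45 and 6.98 FPKM in si-CyCoNP, close to the values of AHNAK itself. As in AHNAK, si-CyCoNP replicate 1 was the highest library of its group in GPM6B. Of the 10 genes, S100A10 was the nearest to AHNAK, at a distance of 0.316 and rank 34 of the other 13965 tested genes. ANXA5 followed at 0.709 (rank 736) and ANXA2 at 0.957 (rank 3511), and ANXA6 was among the farthest, at 1.62 (rank 13649). The distance takes in the difference between the groups, which was part of the choice of the genes. These ranks are made from the values above and add no separate evidence.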

How the data were processed

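RNA of 6 libraries of SK-N-BE cells, 3 si-SCR and 3 si-CyCoNP, was analysed, with groups and replicate numbers from the sample titles. Total RNA libraries were made with a stranded kit after ribosomal RNA removal and sequenced as paired ends. Per the submitters' processing notes and the study's methods, the authors trimmed reads with Trimmomatic 0.39 and cutadapt 3.2, discarded ribosomal reads with Bowtie2 2.4.2 and aligned the rest to GRCh38 with STAR 2.7.7a. The deposited raw counts per Ensembl gene hold unique fragments, so genes with near-identical copies are undercounted. The deposited FPKM values were scaled by the authors by gene length and library total, and for all 22586 genes with counts in at least 2 libraries both tables gave the same gene length.

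The 10 genes and the 8 related lists (written from general knowledge) were chosen with earlier results of these data known. Genes with a mean of at least 1 FPKM in either group, as in the study, were tested in R 4.3.3 with edgeR 4.0.16 (quasi-likelihood test) after TMM scaling (factors 0.961 to 1.03), with Benjamini-Hochberg adjustment over all of them. The study's methods name DESeq2, which was run as an alternative (DESeq2 1.42.0). Named genes were the 10 genes, LINC02381, the 3 smallest p-values in each direction among genes of a list under an adjusted p of 0.05 (or its gene of highest mean FPKM where there was none), and the 5 nearest profiles to AHNAK. A gene that this rule names in a list is not reported here and enters only the list counts. Other alternatives were DESeq2 size factors, upper quartile scaling, library totals alone, the filterByExpr filter, no filter, a replicate block, limma 3.58.1 on log2(FPKM + 1) and log2(FPKM + 0.1), and leaving out each library.

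Totals of 3762009 to 4799407 counts per library set the depth of the deposited counts, and a count of up to 3 was treated as the floor. The paper reports far more paired-end reads per sample than these totals, and the reason for the difference was not tested. Intervals and floors cover counting error only, since the labels name no molecular identifiers that would set PCR copies apart. The labels do not say that replicates came from separate cultures, so the p-values measure the spread between these samples, which may be technical. The test was checked on simulated counts. Gene positions are from GENCODE 44, and promoters and microRNAs from RefSeq on GRCh38.p14. Protein sequences were not used here.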

Additional observations from a re-analysis of the deposited data

How the results depend on the processing

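Under 15 alternatives no direction of a named gene turned. AHNAK stayed between -2.28 and -1.88 on the log2 scale, S100A10 between -1.66 and -1.38, ANXA5 between -0.83 and -0.63, ANXA6 between 1.05 and 1.19, and ANXA2 between -0.28 and -0.15, and LINC02381 between -4.16 and -2.90. Without 1 library each in turn, the calls numbered 295 to 400 in the higher and 359 to 507 in the lower direction, against 319 and 416 with all libraries. On log2(FPKM + 1), a scale that understates changes of low genes, 207 genes were called higher and 180 lower, and on log2(FPKM + 0.1) 323 and 292. Library totals alone gave 393 higher and 350 lower, so that the larger count was then on the higher side, as on both FPKM scales. On both log2(FPKM + 1) and log2(FPKM + 0.1), 2 partners of AHNAK and the annexins passed with lower values in place of 6, 4 Hippo pathway genes in place of 8, 5 adrenergic genes in place of 8, and 1 YAP and TAZ target in place of 2. On these scales 0 YAP and TAZ targets passed with higher values (limma, adjusted p), and with filterByExpr 2 did and with no filter 3, since more genes were tested. For the changes on the FPKM scales the cause was not tested. Library totals alone shifted the log2 median over all genes by 0.0664.

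Same-numbered libraries deviated together with correlations of 0.0907, 0.0727 and 0.108 across genes, and each si-SCR library correlated best with its own number, which is a hint from the data and not part of the design. With the replicate block the pairing moved AHNAK to -2.08, S100A10 to -1.58 and left LINC02381 at -3.78, with 330 genes called higher and 422 lower, and it changed the side of the threshold for none of the named genes. The depth allows nothing to be said of a difference in YAP1, WWTR1, CCN1 or CCN2.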
